A study of Mus musculus with 8 samples.

Results

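The cytotoxic and NK receptor genes described here were 10 genes chosen by name, Gzma, Gzmb, Gzmk, Prf1, Nkg7, Ccl5, Klrd1, Klrg1, Cd8a and Serpinb9, out of 56980 genes in the deposited table. The list is of names and not of measured values, and all 10 passed the filter on low counts that left 21991 genes for testing. They were read in RNA-seq of regulatory T cells (Tregs), sorted by flow cytometry from mouse peripheral blood. There were 4 libraries of high-altitude de-acclimatization (HADA) and 4 control libraries. All mice were male C57BL/6j. Their age of 8 weeks is, in the paper, that at purchase, so that they were older at the sort. Mice of the HADA group lived for 28 days in a hypobaric chamber set to an altitude of 6000 m and then went back to normoxia, while control mice were kept under normoxia throughout. The day of the sort after the return is not given for these libraries, nor whether each library came from its own mouse, so that p-values measure only the spread between these libraries. The paper defines Tregs as CD4+CD25+ for its co-culture assay and does not state the markers of the sort for RNA-seq. Blood holds other cells that carry CD4 or CD25.

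Cytotoxic T cells and natural killer (NK) cells kill by releasing granules onto a target cell. Perforin opens the target's membrane, granzymes enter and cleave proteins that start cell death, and receptors of the killer cell lectin-like family set the threshold for release. Activated Tregs can also carry granzymes, and KLRG1 and CCL5 are known from effector-type T cells as well as from NK cells. RUNX and T-box transcription factors are known to act on many of these genes.

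The promoters of the 3 granzymes among the members are shown because these genes encode related proteases, and Gzma and Gzmk are neighbours, while the libraries in which each was high differed, as given further on. Each line holds the 250 bases before the RefSeq start of the gene, 5′ to 3′ on the strand of the gene. The build is GRCm38.p6, which is not that of the deposited coordinates (GRCm39). Capitals mark each match on either strand to the RUNX core TGTGGT (reverse complement ACCACA) or the T-box half-site GGTGTGA (reverse complement TCACACC). No matches overlapped. The windows lie on the minus strand at chr13:113100982-113101231 for Gzma, chr14:56262335-56262584 for Gzmb and chr13:113180966-113181215 for Gzmk. Judged by its distance from the Gzma window, the Gzmk window lies within the deposited span of Gzmk and not before that span.
Gzma: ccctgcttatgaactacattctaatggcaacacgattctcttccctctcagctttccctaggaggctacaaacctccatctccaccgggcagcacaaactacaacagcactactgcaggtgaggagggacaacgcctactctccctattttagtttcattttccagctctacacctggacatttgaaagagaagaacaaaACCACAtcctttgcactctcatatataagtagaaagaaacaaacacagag
Gzmb: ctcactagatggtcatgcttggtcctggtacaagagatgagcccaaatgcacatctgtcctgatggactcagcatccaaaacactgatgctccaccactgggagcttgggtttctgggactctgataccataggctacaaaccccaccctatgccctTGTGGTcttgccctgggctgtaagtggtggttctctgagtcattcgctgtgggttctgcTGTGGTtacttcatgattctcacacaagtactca
Gzmk: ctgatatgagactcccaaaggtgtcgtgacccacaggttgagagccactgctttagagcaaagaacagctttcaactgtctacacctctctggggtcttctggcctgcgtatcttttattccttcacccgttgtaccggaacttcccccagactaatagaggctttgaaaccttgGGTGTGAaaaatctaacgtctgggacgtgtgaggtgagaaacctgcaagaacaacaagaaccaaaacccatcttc
The window of Gzma held 1 RUNX core, that of Gzmb held 2, and that of Gzmk held 1 T-box half-site and no RUNX core. Among the 7 members in the RefSeq table, 4 windows held the RUNX core (Gzma, Gzmb, Prf1 and Nkg7), against 14.0% of 32851 windows in all. The T-box half-site was in the windows of Gzmk and Nkg7, against 3.33% of all windows. A match is a run of letters and does not show that a factor binds there.

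Total counts lay between 1477431 and 22584062 in the control libraries and between 22929193 and 28240337 in the HADA libraries, and control 1 was by far the shallowest. Levels are given in CPM, the counts of a gene scaled to a common library size after TMM normalization. Reads were counted over whole gene spans, introns included. The density of counts on 1747 odorant and vomeronasal receptor genes, which T cells are not known to express, served as a background. It differed between libraries, from 0.0495 CPM per kb in control 1 to 0.332 in control 2. Of the Treg markers, Foxp3 and Tnfrsf18 were listed at 0 in every library, and the spans of other genes cover the whole of both. Il2ra, which encodes CD25, was at 178, 10.5, 7.23 and 59.5 CPM in controls 1 to 4 and at 309, 163, 287 and 748 CPM in HADA 1 to 4. Cd4 was at 199, 3.73, 4.79 and 220 CPM in the controls and at 88.0, 176, 162 and 234 CPM in HADA. Both Il2ra and Cd4 were thus low in controls 2 and 3, while Ikzf2 was not. Ikzf2 stood at 125, 211, 287 and 271 CPM in controls 1 to 4 and at 538, 224, 685 and 737 CPM in HADA 1 to 4. It was denser than 99% of the receptor genes in all 8 libraries.

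No member passed edgeR's quasi-likelihood test between HADA and control, whose thresholds were a Benjamini-Hochberg adjusted p under 0.05 together with more than 1 unit of log2 fold change. Of all genes tested, 2.13% passed, 1.65% as higher and 0.477% as lower in HADA. At an unadjusted p below 0.05 with the same fold, 2 of 10 members passed (Nkg7 and Cd8a, both higher in HADA) against 26.7% of all genes. DESeq2 called 3 of 10, with Cd8a and Nkg7 higher and Prf1 lower in HADA, against 31.7% of all genes (11.6% higher and 20.1% lower). With limma on log2(CPM + 1), 0 of 10 were called and the smallest adjusted p was 0.0794, against 4.05% of all genes called (3.7% higher and 0.346% lower). The log2 fold change of HADA over control was above 0 in 7 members and below 0 in 3, with a median of 1.28, while the median over all tested genes was 0.01 and 50.2% of them lay above 0. In no member did the groups keep apart, which they did in 14.8% of all genes (all HADA above all control libraries in 9.13%, and below in 5.7%).

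The highest level of 5 members (Gzma, Gzmk, Nkg7, Cd8a and Serpinb9) stood in HADA 4, that of Gzmb and Prf1 in control 4, that of Ccl5 and Klrg1 in HADA 3 and that of Klrd1 in control 3. The 10 members together took 0.0311% of all counts in control 1 (95% Wilson interval 0.0284 to 0.0340%), 0.00572% in control 2, 0.0207% in control 3 and 0.0280% in control 4. In HADA 1 to 4 they took 0.0211%, 0.0277%, 0.0481% and 0.0756%. The shares of HADA 1 and HADA 2 lay within the range of the controls, and those of HADA 3 and HADA 4 above it. In bulk libraries, fewer cells of a type and less RNA per cell cannot be told apart.

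**Figure D1:**
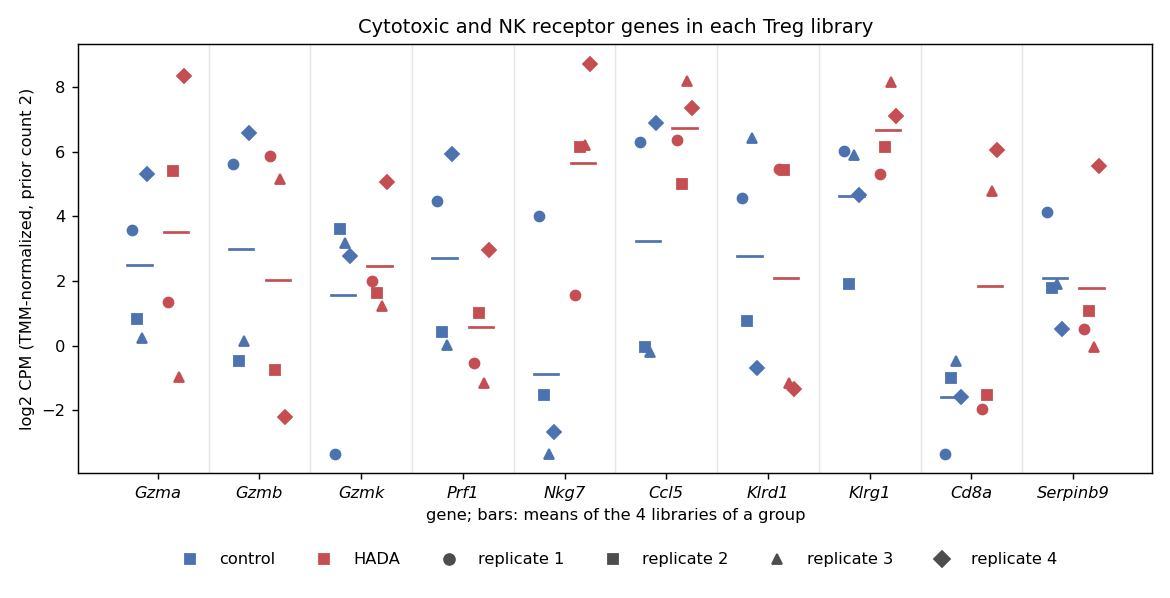
Level of each of the 10 members in the 4 control and 4 HADA libraries, in log2 CPM, each point being 1 library and each bar the mean of the 4 libraries of a group. The groups overlap in every member, and single libraries stand far above the others, such as HADA 4 for Gzma (326 CPM) and control 3 for Klrd1 (86.5 CPM).

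Granzyme A is a tryptase of cytotoxic granules, encoded by Gzma on the minus strand of chromosome 13 (113230359 to 113237515, GRCm39). Gzma stood at 11.8, 1.69, 1.08 and 39.3 CPM in controls 1 to 4 and at 2.45, 42.4, 0.413 and 326 CPM in HADA 1 to 4. HADA 4 was the highest and HADA 3 the lowest of all 8 libraries, so that the HADA values enclosed the controls. The log2 fold change was 2.78 (SE 1.70, edgeR quasi-likelihood adjusted p = 0.284), and it was 0.25 without HADA 4 and 4.39 without control 4.

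Granzyme B, encoded by Gzmb on chromosome 14 (56496295 to 56499717), is an aspartate-specific protease that activates caspases. Gzmb stood at 49.7, 0.626, 1.01 and 96.6 CPM in controls 1 to 4 and at 58.6, 0.503, 35.3 and 0.120 CPM in HADA 1 to 4. Controls 1 and 4 and HADA 1 and 3 were high, the other 4 libraries were near or below 1 CPM, and the groups overlapped. HADA 4, the library with the most Gzma, had the least Gzmb. Gzmb had a log2 fold change of -0.64 (SE 1.70, edgeR quasi-likelihood adjusted p = 0.810), and leaving out 1 library moved it from -1.74 without HADA 1 to 0.54 without control 4.

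Granzyme K, a tryptase often found in memory-type T cells, is encoded by Gzmk, whose span (chromosome 13, 113308142 to 113362442) begins 70.6 kb beyond that of Gzma. The span covers 54301 bp, of which 1389 bp are exonic and 15.54% are shared with Esm1 on the other strand. Gzmk stood at 0, 12.1, 8.94 and 6.78 CPM in controls 1 to 4 and at 3.94, 3.02, 2.24 and 33.1 CPM in HADA 1 to 4. HADA 4 was high, HADA 1 to 3 were below controls 2 to 4, and the 0 of control 1 allows up to 1.86 CPM at its depth, a floor of 3 counts that covers counting error only. Per kb, Gzmk was at 6.27 times the receptor background in HADA 4 and at no more than 0.80 times in the controls, and in no library was it denser than 99% of the receptor genes. Gzmk had a log2 fold change of 0.57 (SE 1.15, edgeR quasi-likelihood adjusted p = 0.749), and it was -1.05 without HADA 4 and 1.07 without HADA 3.

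Perforin, the pore-forming protein encoded by Prf1 (chromosome 10, 61133612 to 61140459), was the member with the most negative fold change. Prf1 stood at 22.4, 1.25, 0.908 and 61.6 CPM in controls 1 to 4 and at 0.592, 1.93, 0.354 and 7.76 CPM in HADA 1 to 4. Controls 1 and 4 were above every HADA library, while controls 2 and 3 lay among the HADA values. Its log2 fold change was -3.02 (SE 1.42, 95% interval -6.11 to 0.07), with an edgeR quasi-likelihood adjusted p of 0.192 and a DESeq2 adjusted p of 0.0268. Without control 4 it was -1.51, and without HADA 4 it was -4.39.

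Nkg7, a small membrane protein of cytotoxic granules that is needed for their release, is encoded on chromosome 7 (43086497 to 43087673). Nkg7 stood at 16.2, 0.250, 0 and 0.0579 CPM in controls 1 to 4 and at 2.88, 70.4, 74.5 and 425 CPM in HADA 1 to 4. HADA 2 to 4 were above every control, and HADA 1 was below control 1 and above the other controls. Nkg7 had a log2 fold change of 5.28 (SE 2.10, 95% interval 0.70 to 9.86), with an edgeR quasi-likelihood adjusted p of 0.149 and a DESeq2 adjusted p of 0.0385. Without control 1, the shallow library, the log2 fold change was 10.49 (edgeR quasi-likelihood adjusted p = 0.0149), which made Nkg7 the only member called in any edgeR fit with 1 library left out. In that fit 35.1% of all genes were called, 15.5% as higher and 19.7% as lower in HADA.

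Serpinb9 encodes the intracellular inhibitor of granzyme B that protects killer cells from their own protease (chromosome 13, 33187233 to 33201940). Serpinb9 stood at 17.4, 3.38, 3.70 and 1.33 CPM in controls 1 to 4 and at 1.34, 2.01, 0.886 and 47.0 CPM in HADA 1 to 4. HADA 4 and control 1 were high, and HADA 1 to 3 lay below controls 1 to 3. The log2 fold change was 1.04 (SE 1.31, edgeR quasi-likelihood adjusted p = 0.596) and turned to -2.03 without HADA 4. Gzmb, the protease it inhibits, was at its lowest in HADA 4.

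CCL5 is a chemokine that draws in T cells and monocytes and is stored by memory and effector T cells. Ccl5 (chromosome 11, 83416604 to 83421344) stood at 78.9, 0.877, 0.769 and 118 CPM in controls 1 to 4 and at 81.7, 31.7, 293 and 164 CPM in HADA 1 to 4. All 4 HADA libraries were high, and so were controls 1 and 4, which kept the groups overlapping. Ccl5 had a log2 fold change of 1.52 (SE 1.36, edgeR quasi-likelihood adjusted p = 0.454), between 0.98 and 2.48 with 1 library left out.

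KLRD1 (CD94) forms heterodimers with NKG2 proteins that read nonclassical MHC class I. Klrd1 (chromosome 6, 129568745 to 129575738) stood at 23.6, 1.60, 86.5 and 0.522 CPM in controls 1 to 4 and at 44.3, 43.3, 0.354 and 0.301 CPM in HADA 1 to 4. A pair of libraries was high in each group, with control 3 the highest, and HADA 3 and 4 were the lowest. Its log2 fold change was -0.35 (SE 1.63, edgeR quasi-likelihood adjusted p = 0.894), from -1.06 without HADA 1 to 1.42 without control 3.
Klrc1, which encodes the NKG2A partner of KLRD1 and was picked out after its values were seen, stood at 0, 2.29, 2.86 and 2.55 CPM in the controls and at 0.789, 19.1, 14.4 and 0.361 CPM in HADA. Controls 1 and 3 and HADA 1 thus had high Klrd1 beside low Klrc1, and HADA 3 the reverse. In the controls Klrc1 was at no more than 0.98 times the receptor background.

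KLRG1 is an inhibitory receptor for cadherins that marks effector T cells, mature NK cells and a terminally differentiated subset of Tregs. Klrg1 (chromosome 6, 122247555 to 122259841) stood at 65.2, 3.66, 59.8 and 25.1 CPM in controls 1 to 4 and at 39.6, 70.5, 283 and 139 CPM in HADA 1 to 4. HADA 2 to 4 were above every control, and HADA 1 lay between controls 4 and 3. With CPM from totals alone, control 3 (75.8) was above HADA 2 (73.4). With the receptor background subtracted, control 3 (114) was above HADA 2 (88.3) and HADA 4 (89.2). Klrg1 had a log2 fold change of 1.79 (SE 0.98, edgeR quasi-likelihood adjusted p = 0.240), between 1.20 and 2.29 with 1 library left out. Klrg1 had the smallest spread among the members.

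CD8 alpha is the coreceptor chain of cytotoxic T cells, and a CD4+ sort should leave those cells out. Cd8a (chromosome 6, 71350411 to 71356157) stood at 0, 0.407, 0.629 and 0.232 CPM in controls 1 to 4 and at 0.158, 0.251, 27.4 and 66.2 CPM in HADA 1 to 4. HADA 3 and 4 were far above the other 6 libraries, all of which lay below 1 CPM. The log2 fold change was 5.95 (SE 1.76, 95% interval 2.13 to 9.78), with an unadjusted p of 0.00532, an edgeR quasi-likelihood adjusted p of 0.0889 and a DESeq2 adjusted p of 5.07e-04. With 1 library left out it lay between 4.73 and 6.51, and its smallest edgeR quasi-likelihood adjusted p was 0.0623.
Cd8b1, the gene of the other CD8 chain, stood at 0.621, 2.35, 1.26 and 1.85 CPM in the controls and at 29.0, 14.2, 45.7 and 109 CPM in HADA. All 4 HADA libraries were above all controls, and Cd8b1 passed the thresholds with a log2 fold change of 4.97 (edgeR quasi-likelihood adjusted p = 0.0301). That call was lost without HADA 1 or 3 or without control 2, 3 or 4, where the adjusted p was 0.0556 to 0.131 and the log2 fold change 4.87 to 5.24. It was also lost with the receptor background subtracted (adjusted p = 0.0992), with totals drawn down to the smallest (0.461) and with the replicate number as a block (0.0833). HADA 1 and 2 therefore held Cd8b1 counts beside Cd8a values under 1 CPM.

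**Figure D2:**
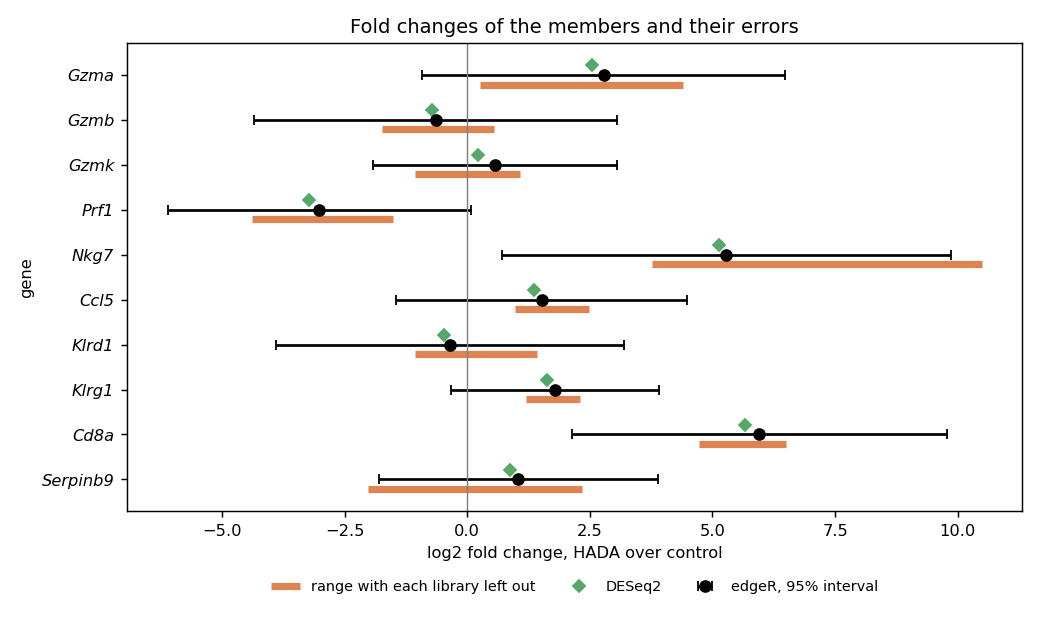
Log2 fold change of HADA over control for each of the 10 members, by edgeR with its 95% interval (black), by DESeq2 (diamonds) and as the range of edgeR values with each library left out (orange). Cd8a (5.95 by edgeR) and Nkg7 (5.28) lie farthest to the higher side and Prf1 (-3.02) farthest to the lower side, and no member passed the edgeR thresholds.

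The density of each member per kb of its span was set against the receptor genes of the same library, a measure chosen after values had been seen. Of 80 pairs of member and library, 37 were denser than 99% of the receptor genes. In HADA these were 22 of 40, where 29.9% of all pairs of tested gene and HADA library were that dense. In the controls they were 15 of 40, against 17.2% of all control pairs. By library they were 8, 0, 2 and 5 members in controls 1 to 4 and 5, 5, 5 and 7 in HADA 1 to 4, and among all tested genes the share was 31.8, 4.97, 12.9 and 19.1% in controls 1 to 4 and 25, 27.6, 34.4 and 32.5% in HADA 1 to 4. Control 2, with no member above that level, also had the smallest share of all genes above it.

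Klrg1 was that dense in 7 libraries, all but control 2, and Ccl5 in 6, which were all HADA libraries and controls 1 and 4. Nkg7 was so in all HADA libraries and in control 1. Gzma, Gzmb and Klrd1 were each so in 4 libraries, 2 of each group, and Prf1 in controls 1 and 4 and HADA 4. Cd8a was so in HADA 3 and 4, Serpinb9 in control 1 and HADA 4, and Gzmk in none. In HADA 4, Gzmk came close, denser than 98.7% of the receptor genes. Exons make up 1389 of the 54301 bp of the Gzmk span and 919 of the 1177 bp of the Nkg7 span, so that their densities are not alike. Nkg7 in HADA 4 had the highest density of all 80 pairs, at 3140 times the receptor background.

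**Figure D3:**
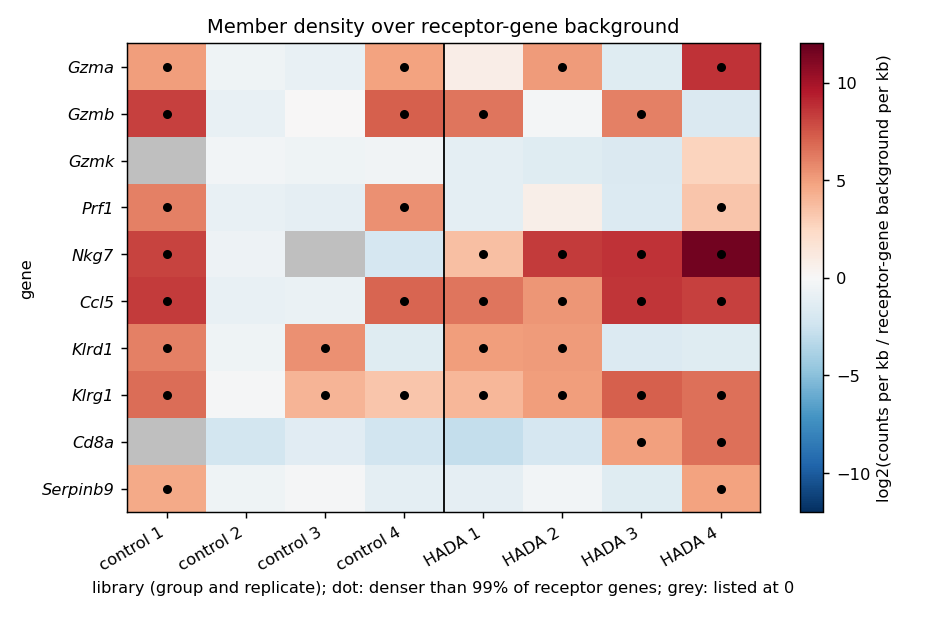
Log2 ratio of the counts per kb of each member to those of the receptor genes in the same library, as colour, with control libraries left of HADA libraries, a dot where the member was denser than 99% of receptor genes and grey where it was listed at 0. Gzmk stays near the background outside HADA 4 (6.27 times), Cd8a rises above it in HADA 3 and 4, and control 2 has no member denser than 99% of receptor genes.

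The libraries of 1 group differed from each other more in these genes than in most. The SD of log2 CPM within groups was 3.0 in the median over the members and 1.38 over all tested genes, and 10 of 10 members were above the latter. It ran from 1.61 for Klrg1, above 62.0% of tested genes, to 3.87 for Gzmb, above 99.8%. The genes whose log2 CPM ran most closely with the mean of the 10 standardized members over the 8 libraries were Lmbrd1 (Pearson r = 0.958), Cramp1 (0.955), Pxk (0.951), Rps3a2 (0.948) and Maea (0.946). That mean was highest in HADA 4 and lowest in control 2, and such correlations over 8 libraries share the depth and background of those libraries.

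Around the members, 75 genes in 6 lists were read, of which 62 were tested. Of these 1 was called by edgeR, Serpinb9c, and 24 had an unadjusted p below 0.05, all with a log2 fold change beyond 1, against 26.7% of all genes. DESeq2 called 15 higher and 10 lower in HADA, against 11.6% and 20.1% of all genes. limma called 7, all higher, against 3.7% of all genes. Without control 1, edgeR called 29 of these genes, beside the 35.1% of all genes called in that fit. Of the genes named below, Cst7, Lyst, Tyrobp, Cd160, Fcer1g, Klra4, Klrc2, Klri2, Ccl3, Ccl4, Serpinb6b, Serpinb9f, Serpinb9g, Hopx and Ctla4 were called by edgeR in that fit and in no other fit with 1 library left out, at adjusted p between 0.00422 and 0.0369.

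Of the 7 other granzymes, 3 were tested and 0 called by edgeR, DESeq2 or limma, 0 had an unadjusted p below 0.05, and the median log2 fold change was 0.09. Granzyme M, known from NK and innate-like T cells, was the only one of them denser than 99% of the receptor genes in a HADA library, and it was so in all 4. Gzmm stood at 0, 1.13, 131 and 0.579 CPM in controls 1 to 4 and at 35, 44.2, 20.1 and 42.1 CPM in HADA 1 to 4. The HADA libraries lay close together, and control 3, which also had the most Klrd1, was above all of them. Without control 3 the log2 fold change of Gzmm was 5.72 (edgeR quasi-likelihood adjusted p = 0.0945), against 0.09 with it. Gzmg (0.30, SE 0.61) and Gzmn (-0.21, SE 0.69) had small log2 fold changes, that of Gzmn turned to 0.56 without control 2, and neither exceeded 2.66 CPM in any library.

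Of 10 genes for granule assembly and release, all were tested and 0 called by edgeR, with a median log2 fold change of 1.75. At an unadjusted p below 0.05 there were 2, and DESeq2 called 3 higher and limma 0. Cst7 encodes cystatin F, an inhibitor of the cathepsins that activate progranzymes, and its log2 fold change was 3.08 (SE 1.06, edgeR quasi-likelihood adjusted p = 0.118). That of Rab27a, the GTPase that docks granules, was 2.44 (SE 1.02, adjusted p = 0.162), and that of Lyst, a regulator of lysosome size, was 1.47 (SE 0.72, adjusted p = 0.204). Stxbp2, a partner of the fusion protein syntaxin 11, stood at -0.29 (SE 0.96, adjusted p = 0.851) and at 0.15 without control 3, and the groups overlapped in all 4 of these genes.

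Of 30 NK receptors and adaptors, 27 were tested and 0 called, with a median log2 fold change of 0.74, and 12 had an unadjusted p below 0.05, 6 in each direction. DESeq2 called 5 higher and 8 lower, and limma 3 higher. Tyrobp encodes the adaptor DAP12 of activating receptors. It stood at 79.5, 1.72, 13.1 and 26.5 CPM in controls 1 to 4 and at 480, 585, 434 and 499 CPM in HADA 1 to 4, which kept the groups apart. Its log2 fold change was 4.06 (SE 1.04, edgeR quasi-likelihood adjusted p = 0.0630). Fcer1g, another adaptor chain (log2 fold change 3.48, SE 1.18, adjusted p = 0.116), and Cd160, a receptor of NK cells and CD8 T cells (2.58, SE 0.82, adjusted p = 0.105), were also higher in every HADA library than in any control. Tyrobp and Fcer1g are also strongly expressed by myeloid cells, whose markers are given further on.

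The receptors with the smallest p on the lower side were Klra4, Klrc2 and Klri2. Klra4, an activating Ly49 receptor, stood at 5.59, 6.11, 21.1 and 4.29 CPM in the controls and at 2.05, 1.97, 0.886 and 1.14 CPM in HADA, below every control. Its log2 fold change was -2.62 (SE 0.77, edgeR quasi-likelihood adjusted p = 0.0878). Per kb, Klra4 lay between 0.78 and 4.80 times the receptor background in the controls and between 0.23 and 0.48 times in HADA. The 4.80 times was that of control 1, on 9 counts, and only 1 control was denser in Klra4 than 99% of the receptor genes. Klrc2 (-2.04, SE 0.70, adjusted p = 0.118) was at no more than 1.03 times the background in any library, and Klri2 (-3.03, SE 1.06, adjusted p = 0.121) exceeded it clearly in control 3 alone, at 6.90 times. The paralogs of the Klra and Klrc families share sequence, and counts can be split between them.

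Of 8 effector cytokines and death ligands, 4 were tested and 0 called by edgeR, with a median log2 fold change of 4.98. At an unadjusted p below 0.05 there were 3, all higher, and DESeq2 called 3 and limma 2. Ccl3, a chemokine released by activated T, NK and myeloid cells, stood at 14.9, 0.250, 1.82 and 0 CPM in controls 1 to 4 and at 220, 112, 149 and 434 CPM in HADA 1 to 4. All HADA libraries were above all controls, with a log2 fold change of 5.89 (SE 1.66, edgeR quasi-likelihood adjusted p = 0.0821). Other genes share 56.4% of the span of Ccl3. Ccl4, its close relative, also kept the groups apart (5.03, SE 1.51, adjusted p = 0.0927). Without control 1 the log2 fold change was 8.48 for Ccl3 (edgeR quasi-likelihood adjusted p = 0.0128) and 8.88 for Ccl4 (adjusted p = 0.00422). Fasl, the ligand of the death receptor Fas, stood at 0.276, 30.1, 6.91 and 92.8 CPM in HADA 1 to 4 against at most 1.63 CPM in the controls (4.93, SE 1.48, adjusted p = 0.0924), with HADA 1 within the range of the controls.

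Of the 9 intracellular serpins related to Serpinb9, all were tested and 1 was called by edgeR, with a median log2 fold change of 1.05. Serpinb9c, a paralog of Serpinb9 in the mouse serpin cluster on chromosome 13, stood at 26.1, 4.04, 3.84 and 2.14 CPM in controls 1 to 4 and at 579, 503, 477 and 365 CPM in HADA 1 to 4. All HADA libraries were far above all controls, and the log2 fold change was 5.79 (SE 1.04, edgeR quasi-likelihood adjusted p = 0.0198). The call was lost without HADA 1 or without control 2, 3 or 4 (edgeR quasi-likelihood adjusted p between 0.0505 and 0.0888), at log2 fold changes between 5.45 and 5.55, and with the receptor background subtracted (6.02, adjusted p = 0.0682). Serpinb6b, the paralog of an inhibitor of granule cathepsin G, was higher in every HADA library (3.04, SE 0.78, adjusted p = 0.0638). Serpinb9b was high in HADA 4 alone, at 80.7 CPM against at most 2.88 CPM elsewhere, and its log2 fold change was 3.45 with HADA 4 and -0.69 without it.
Serpinb9f, Serpinb9g and Serpinb9d had log2 fold changes of -2.01, -1.84 and -1.20, with edgeR quasi-likelihood adjusted p from 0.108 to 0.222. In HADA none of them was denser than the receptor background. In the controls Serpinb9f reached at most 0.90 times that background and Serpinb9g at most 0.72 times. Serpinb9d reached 4.93 times in control 1, on 4 counts. None of them was denser than 99% of the receptor genes in any library.

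Of 11 transcription factors of effector lymphocytes, 9 were tested and 0 called by edgeR, with a median log2 fold change of 1.80. At an unadjusted p below 0.05 there were 2, and DESeq2 called 2 higher and limma 0. Hopx, a cofactor kept on in effector-memory cells, stood at 0.621, 3.66, 2.90 and 2.90 CPM in the controls and at 7.73, 12.9, 85.4 and 17.6 CPM in HADA, with the groups apart (3.56, SE 1.03, edgeR quasi-likelihood adjusted p = 0.0849). Stat4, which transmits interleukin 12 signals, was also higher in every HADA library (1.80, SE 0.78, adjusted p = 0.169). The log2 fold change of Prdm1 (Blimp-1) was 1.80 (SE 0.85, adjusted p = 0.192) and that of Runx3, a RUNX factor of cytotoxic lymphocytes, was -0.95 (SE 1.10, adjusted p = 0.563), or 0.11 without control 4. Tbx21, the T-box factor T-bet, was at no more than 1.10 times the receptor background in any library, and Eomes at no more than 0.43 times.

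**Figure D4:**
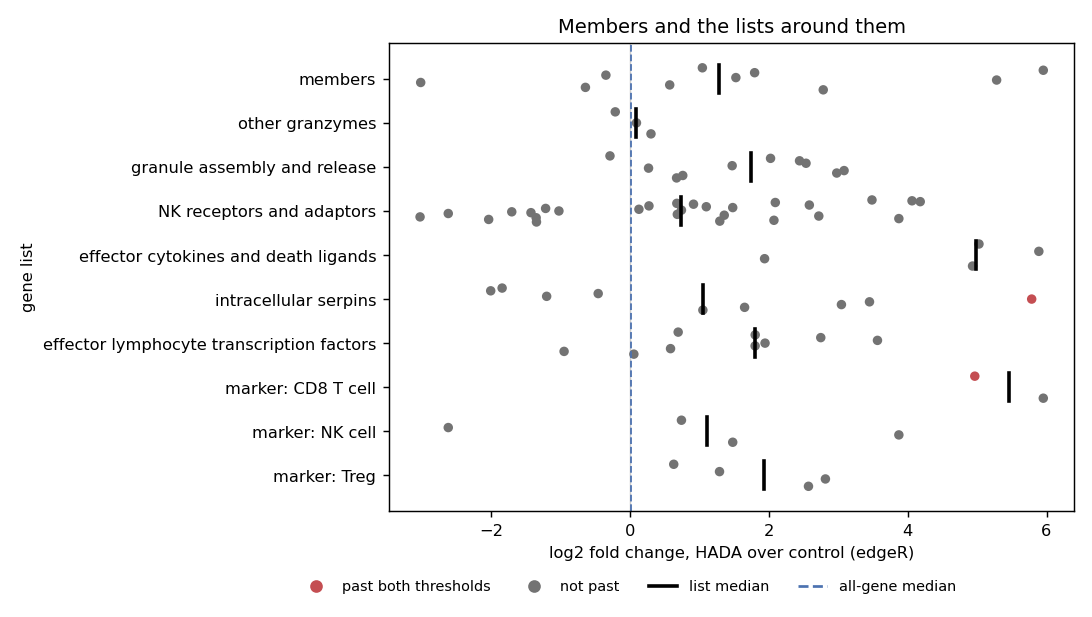
Log2 fold change of HADA over control (edgeR) for the members, the 6 lists around them and the markers of CD8 T cells, NK cells and Tregs, each point 1 tested gene and each bar the median of a list. Among the 6 lists, the effector cytokines and death ligands have the highest median (4.98) and the other granzymes the lowest (0.09), and Serpinb9c and the CD8 T cell marker Cd8b1 are the points past both thresholds.

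The 10 members are also expressed by other blood cells, and the markers of these cells were read in the same libraries. Both CD8 T cell markers together (Cd8a and Cd8b1) summed to between 14.5 and 176 CPM in HADA and between 0.621 and 2.76 CPM in the controls. The 6 NK cell markers (Ncr1, Klrb1c, Klre1, Klra4, Klra8 and Eomes) summed to 38.1, 14.9, 3.43 and 58.0 CPM in HADA 1 to 4 and to between 5.59 and 28.2 CPM in the controls, with 4 of 6 tested and 0 called by edgeR, 2 at an unadjusted p below 0.05, and 1 called higher and 1 lower by DESeq2. Klrb1c, which encodes NK1.1, was at 0, 7.37, 0.354 and 9.20 CPM in HADA 1 to 4 and at no more than 0.282 CPM in the controls. Other genes share 83.2% of the span of Klrb1c. Klre1 was at 34.7, 1.01, 0.354 and 25.9 CPM in HADA 1 to 4 and at no more than 1.61 CPM in the controls. Ncr1, the gene of NKp46, was at 0.434, 3.35, 0.118 and 8.06 CPM in HADA 1 to 4 and at no more than 1.54 CPM in the controls. Both were at no more than 0.73 times the receptor background in the controls. The log2 fold change of Klre1 was 3.87 (SE 1.36, edgeR quasi-likelihood adjusted p = 0.121, DESeq2 adjusted p = 0.00968). Klra4 went the other way, at 5.59, 6.11, 21.1 and 4.29 CPM in controls 1 to 4, and was the whole sum of control 1. Summed over the 6 genes, the NK markers were lowest in HADA 3, which had the most Ccl5 and Klrg1, and highest in HADA 4, which had the most Gzma and Nkg7, while single markers followed other orders, with Klrb1c lowest in HADA 1 and Klre1 highest there. Klra8 was highest in HADA 4 (13.4 CPM), and its log2 fold change of 0.74 turned to -1.18 without it. Their part in the values of the members was not tested.

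The T cell markers summed to between 1550 and 4366 CPM in HADA and between 141 and 1626 CPM in the controls, and the markers of naive T cells to between 2087 and 4611 against between 104 and 2557 CPM. The Treg markers summed to between 817 and 2481 CPM in HADA and between 230 and 726 CPM in the controls. Ctla4 was higher in every HADA library than in any control (log2 fold change 2.81, SE 1.07, edgeR quasi-likelihood adjusted p = 0.138). Myeloid markers ranged from 730 to 3293 CPM in HADA and from 49.7 to 1653 CPM in the controls, B cell markers from 916 to 3011 and from 97.4 to 2379, and platelet markers from 267 to 1662 and from 42.3 to 470. Erythroid markers were at 145 to 2807 CPM in HADA and 1027 to 28318 CPM in the controls, with control 1 the highest. Control 2, with the lowest summed level of the members (25.9 CPM), was also the lowest library in the T cell, Treg, B cell, myeloid and platelet markers. The part of these cells in the values of the members was not tested.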

How the data were processed

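Tregs of 4 HADA and 4 control libraries were grouped by their labels. Read quality (FastQC), trimming (Trimmomatic), alignment to GRCm39 (STAR) and counting per gene (featureCounts) were done by the authors, who deposited raw counts without normalization. Versions, strand and multi-mapping settings are not given in the sources used here. The deposited length of a gene equals its span in 100% of 56980 genes, so counts include introns, and 1077 of 1077 coding genes lying wholly within the spans of other genes were listed at 0. Gene names came from GENCODE vM39, where 98.69% of identifiers were found, and coordinates are those deposited. The members and lists were chosen with earlier results of these data known.

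Differential expression was tested with edgeR 4.0.16 in R 4.3.3 (TMM, filterByExpr, quasi-likelihood, no covariates, all 8 libraries), and genes were called at an adjusted p below 0.05 (Benjamini-Hochberg) and a log2 fold change beyond 1. log2 CPM used a prior count of 2. DESeq2 1.42.0, which the study used, and limma 3.58.1 were alternatives, beside DESeq2's size factors, the unfiltered table, a minimum of 10 counts in every library, totals drawn down to the smallest, subtraction of the receptor background, a replicate block and each library left out. The script was tested on simulated data with a smaller dispersion than the 0.805 of these data and no difference in background between libraries. That run does not show how the tests behave on these data. Shares of counts carry 95% Wilson intervals and 3 counts are the floor, both for counting error only. Named genes are the members, up to 3 genes a direction with the smallest p in each of the 6 lists, all Treg, CD8 T cell and NK cell markers, the most abundant marker of the other cells, and the 5 genes most correlated with the mean of the members. Further tables came from scripts in Python 3.11.15 using scipy 1.17.1, numpy 2.4.6 and pandas 2.3.3.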

Additional observations from a re-analysis of the deposited data

Results flagged for a closer look

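Among 110 groups of 4 libraries (the members and the other named genes that were tested, each in HADA and in control), 7 held a library whose gap to the nearest other library was above Dixon's 95% critical value, and chance gives 5.5. Of the 20 groups of the members, 1 was so, and chance would give 1 on the same terms. That member was Gzmk, whose log2 CPM was -3.34 in control 1 with 0 counts, against 2.78 to 3.61 in the other controls. Control 1 also stood apart in Fasl (-3.34), Serpinb9f (-3.34), Klra8 (-3.34) and Hopx (-0.47), at 0 counts in the first 3 and 1 count in Hopx. It is the shallowest library, with 1477431 counts. HADA 4 stood apart in Serpinb9b, at 6.34 against 0.06 to 0.57 in the other HADA libraries, and in Pxk, at 8.47 against 5.56 to 5.86.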

How the results depend on the processing

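Of 145 recomputed log2 fold changes of the members, 132 kept their direction and their side of the thresholds, 4 passed the thresholds (Prf1, Nkg7 and Cd8a under DESeq2, and Nkg7 without control 1) and 9 turned their direction. With 1 library left out, the log2 fold change lay between -1.74 and 0.54 for Gzmb, -1.05 and 1.07 for Gzmk, -1.06 and 1.42 for Klrd1 and -2.03 and 2.34 for Serpinb9. It was also -0.12 for Serpinb9 under limma. The cause of these turns was not tested. Members called numbered 3 under DESeq2 and 0 to 1 with 1 library left out, and 0 under the other alternatives, in which only 3 members were tested with at least 10 counts in every library, 5 with drawn-down totals and 7 with the background subtracted.

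Called genes in the lists around the members, 1 in edgeR, numbered 25 under DESeq2, 7 under limma, 3 with at least 10 counts in every library, 2 with no filter, 2 with drawn-down totals, 0 with the background subtracted, where Serpinb9c was lost, and 0 to 29 with 1 library left out. Over all genes, edgeR called 468 (363 higher and 105 lower), DESeq2 6704 (2457 and 4247), limma 890 (814 and 76), at least 10 counts in every library 226 (93 and 133), the subtracted background 209 (103 and 106), drawn-down totals 114 (62 and 52), no filter 462 (408 and 54) and 29 to 8448 genes with 1 library left out, the highest without control 1 (3716 and 4732). Over all genes, the median change (log2) was 0.01 in edgeR, -0.19 with DESeq2's size factors, -0.37 with no filter, 0.13 under limma and 1.01 with the background subtracted.

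Replicate numbers did not pair the libraries: deviations of same-numbered libraries correlated at -0.21, 0.25, -0.08 and -0.003, and 2 of 8 libraries correlated best with their own number. With the replicate number as a block, 0 members, 2 genes of the lists and 169 of all genes (158 higher and 11 lower) were called, and the log2 fold change was 0.011 for Klrd1 and -1.0 for Serpinb9. HADA 4 held the highest level of 5 members, and of 4 when CPM used totals alone.

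Counts of 3 or fewer set the lowest levels of Gzmb, Gzmk, Nkg7 and Cd8a, and in control 1 the floor of 3 counts stands at 1.86 CPM.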

Other observations

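Srgn, the proteoglycan core that packs granzymes, was denser than 99% of the receptor genes in all 8 libraries, with a log2 fold change of 0.67, and 58.0% of its span is shared with other genes. Ctsc, the cathepsin that activates progranzymes, was so in all 4 HADA libraries and in 2 controls, with a log2 fold change of 0.76. Ifng, the gene of interferon gamma, was at no more than 1.35 times the receptor background in any library and was not tested. Tnf was at 19.3 times that background in 1 HADA library and at no more than 0.29 times in the controls.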
